A study of Sus scrofa with 12 samples.

Results

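Nuclear-encoded subunits of the oxidative phosphorylation (OXPHOS) machinery were followed by RNA sequencing in porcine aortic valve interstitial cells (paVICs), the fibroblast-like cells that fill the valve leaflets. The genes were chosen by symbol and a minimum count, with earlier results of these data known. A member had a symbol starting with NDUFA, NDUFB, NDUFC, NDUFS or NDUFV and a digit, the symbol SDHA, SDHB, SDHC or SDHD, a symbol starting with UQCR or ATP5, or a lettered cytochrome c oxidase symbol such as COX5A, and its counts summed to at least 120 over the 12 libraries. Of the 31908 genes in the count table, 62 matched and 60 reached the minimum. NDUFA11, with 30 counts in all, and COX6B2, with 28, did not. By symbol, 30 members belonged to complex I, 3 to complex II, 5 to complex III, 10 to complex IV and 12 to complex V.

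The cells were wild-type primary cultures from pig aortic valves, each isolation pooled from several hearts and passaged once after thawing, and 3 isolations grown on different days each gave 1 library per group. Isolation numbers below are the replicate numbers of the libraries, which the methods do not tie to the isolations in words. All groups were treated for 24 h. The vehicle group received 0.6% DMSO and 0.1% ethanol. The LPC group received 10 μM lysophosphatidylcholine (a phospholipid carried by lipoproteins) in ethanol, with 0.6% DMSO. The dantrolene group received 60 μM dantrolene (a ryanodine receptor inhibitor) in DMSO, with 0.1% ethanol. The LPC + dantrolene group received both agents, dantrolene in DMSO and LPC in ethanol. The study asked how calcium signaling blockade changes the response of these cells to LPC, and the comparisons below ask whether that response reached the subunits of the respiratory chain.

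In OXPHOS, complexes I and II pass electrons from NADH and succinate to ubiquinone, complex III passes them on to cytochrome c, and complex IV reduces oxygen. Complexes I, III and IV pump protons across the inner mitochondrial membrane, and complex V (ATP synthase) uses that gradient to make ATP. Complex II is encoded entirely in the nucleus, and the other complexes mix nuclear subunits with subunits encoded by mitochondrial DNA.

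The libraries held 16489684 to 24105935 counts, and all 60 members passed the filter on low counts that left 13216 genes for testing. One library stood apart. LPC + dantrolene isolation 2 correlated with the other libraries of its group at 0.901 and 0.917 over the log2 CPM (counts per 1000000 counts, after TMM scaling) of all tested genes, against 0.949 to 0.975 for every pair within the other groups and 0.972 for the remaining pair of its own group. It was the highest of the 12 libraries for 13 members and the lowest for 12, so it held 25 of the 120 extreme positions. Vimentin (VIM) lay between 5080 and 12155 CPM and COL1A1 between 8704 and 26646 CPM, and all 10 listed fibroblast genes were detected. Of the leukocyte list, PTPRC, CD163, CD3E and LYZ had 0 counts in all 12 libraries. CD68, CD14, CSF1R and ITGAM did not, and the 8 listed leukocyte genes summed to 12.6 to 28.8 CPM. TNNT2 of the cardiomyocyte list was also at 0 throughout, MYL2 reached at most 0.0477 CPM, and the 6 listed cardiomyocyte genes summed to at most 2 CPM. Endothelial genes were present at a low level, with PECAM1 between 23.7 and 44.2 CPM. In bulk RNA, fewer cells of a type and less RNA per cell cannot be told apart.

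The summed level of the 60 members overlapped between all groups. The vehicle libraries of isolations 1, 2 and 3 held 3151, 3662 and 4070 CPM. The LPC libraries held 2726, 3623 and 2996 CPM and the dantrolene libraries 3293, 3002 and 3200 CPM. The LPC + dantrolene libraries held 2759, 3554 and 2625 CPM. The means were 3628 ± 460 CPM in vehicle, 3115 ± 460 in LPC, 3165 ± 149 in dantrolene and 2979 ± 502 in LPC + dantrolene (SD, n = 3). CPM are not divided by transcript length, so levels are compared between libraries and not between genes.

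**Figure D1:**
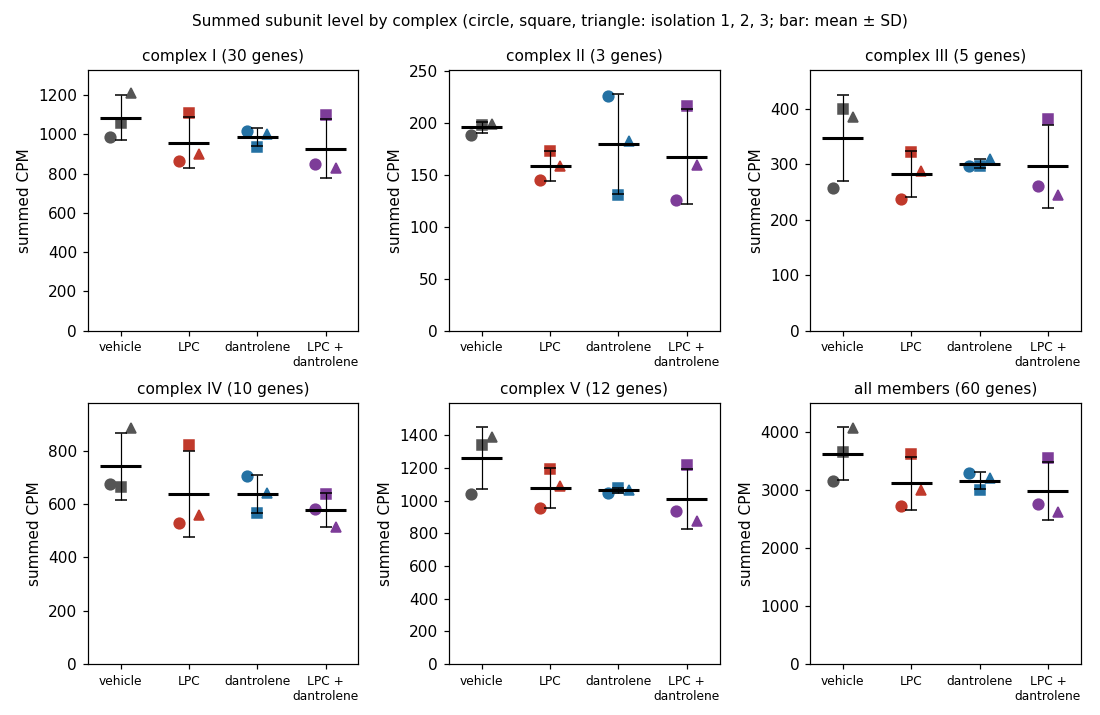
Summed CPM of the members of each respiratory complex and of all 60 members (vertical axes, from 0) in the 4 groups, with each library as a point shaped by isolation and the mean ± SD (n = 3) as bars. Every treated group overlaps vehicle in every panel except LPC in complex II, at 145 to 173 CPM against 189 to 199 CPM, and LPC + dantrolene in complex IV, at 513 to 638 CPM against 663 to 886 CPM.

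Complex by complex the treated groups overlapped vehicle as well, except LPC in complex II and LPC + dantrolene in complex IV. The summed level of complex I was 1085 ± 113 CPM in vehicle, 958 ± 132 in LPC, 984 ± 45.6 in dantrolene and 927 ± 150 in LPC + dantrolene. Complex II, which had 3 members, summed to 189, 198 and 199 CPM in vehicle and to 145, 173 and 159 CPM in LPC. With LPC + dantrolene it summed to 126, 217 and 160 CPM, and its highest library was the one that stood apart. Complex III summed to 347 ± 78 CPM in vehicle and to means of 282, 301 and 296 CPM in the LPC, dantrolene and LPC + dantrolene groups. Complex IV summed to 677, 663 and 886 CPM in vehicle and to 583, 638 and 513 CPM in LPC + dantrolene, all below vehicle, while the means of LPC and dantrolene were 637 and 638 CPM. For complex V the means were 1258, 1079, 1062 and 1011 CPM in the order vehicle, LPC, dantrolene and LPC + dantrolene. These sums were not tested.

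No member was called in any of the 7 comparisons by edgeR's quasi-likelihood test at an adjusted P under 0.05. Over the same test the share of all 13216 genes called was 8.69% for LPC against vehicle, 8.8% for dantrolene against vehicle and 7.14% for LPC + dantrolene against vehicle. It was 0.507% for LPC + dantrolene against LPC, 0.0227% for LPC + dantrolene against dantrolene, 0.325% for dantrolene against LPC and 4.65% for the interaction, the log2 change by LPC when dantrolene was present minus that when it was absent. At an unadjusted P under 0.05 the test counted 1 member for LPC against vehicle, 1 for LPC + dantrolene against LPC, 2 for the interaction and 0 for the other comparisons. The unadjusted share of all genes was 15.9% for LPC, 16.2% for dantrolene and 14.5% for LPC + dantrolene against vehicle. It was 6.61% for LPC + dantrolene against LPC and 1.28% for LPC + dantrolene against dantrolene. For dantrolene against LPC it was 4.4% and for the interaction 14.5%. The DESeq2 Wald test called 0 members in every comparison after adjustment, with 1 at an unadjusted P under 0.05 for LPC against vehicle, for dantrolene against LPC and for the interaction and 0 elsewhere. The share of all genes by that test is not given here.

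The intervals were wide. For LPC against vehicle, the 95% interval of the log2 fold change lay within −1 and 1, a change of 2-fold either way, for 41 of 60 members. This was so for 45 members for dantrolene and 39 for LPC + dantrolene against vehicle. For the interaction it held for 7 members, and for the other 53 the interval reached past 2-fold.

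**Figure D2:**
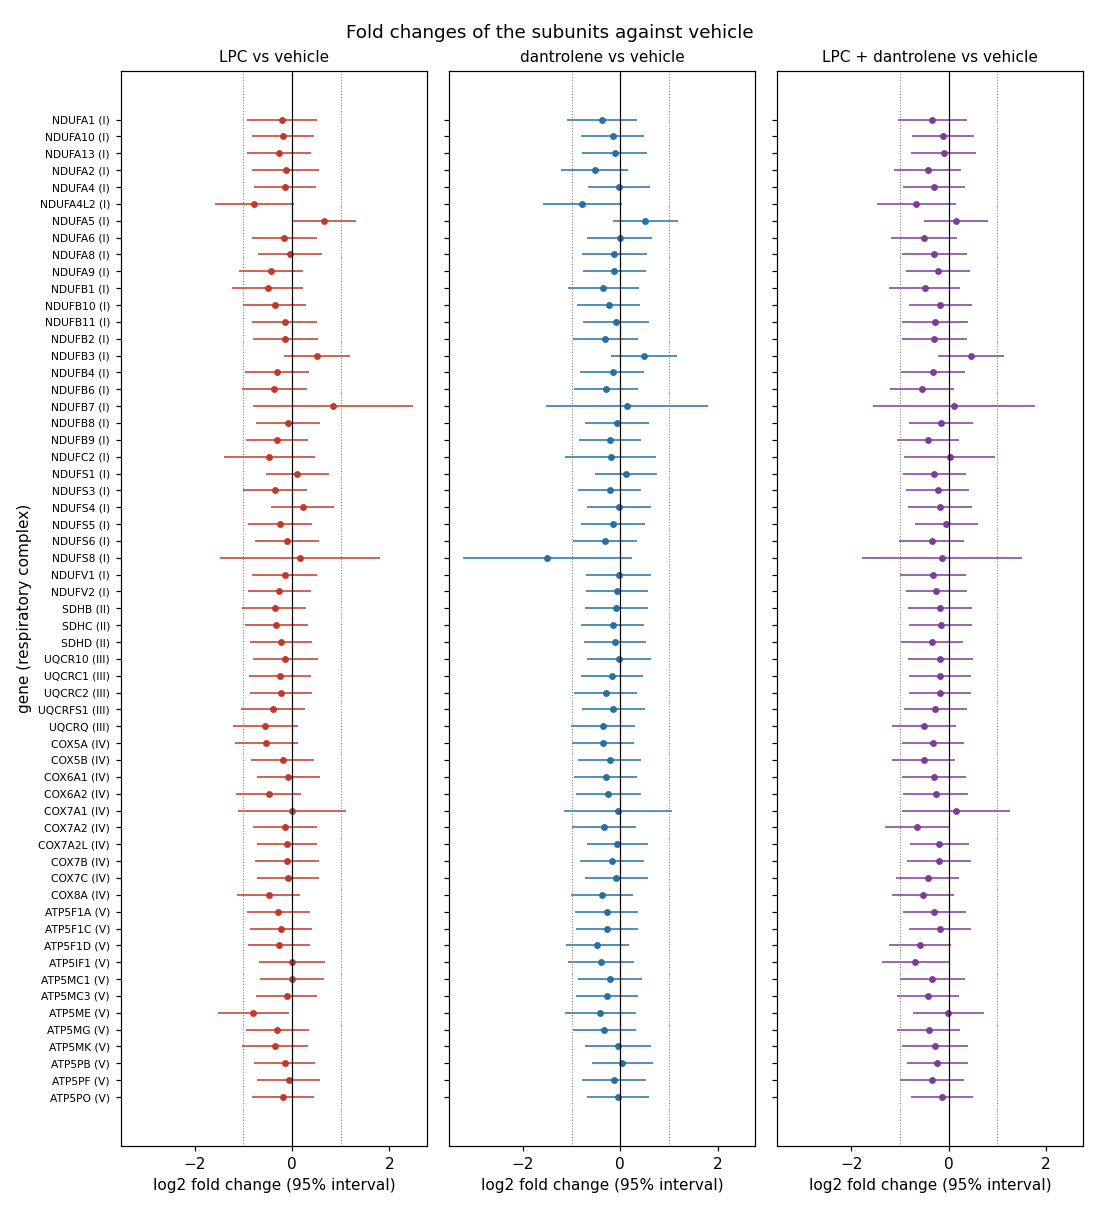
Log2 fold change of 59 members against vehicle (points) with its 95% interval from edgeR (lines), for LPC, dantrolene and LPC + dantrolene, ordered by complex. Dotted lines mark −1 and 1, and the widest intervals belong to NDUFS8 and NDUFB7, whose counts were lowest.

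Most estimates against vehicle were slightly below 0, as were those of all genes. The members' median log2 fold change was −0.20 for LPC, −0.17 for dantrolene and −0.27 for LPC + dantrolene, against −0.18, −0.11 and −0.08 over all genes tested. Estimates were below 0 for 54, 55 and 55 of the 60 members. When 1 library was left out, the members' medians ranged from −0.38 (without LPC isolation 2) to −0.05 (without vehicle isolation 3) for LPC. They ranged from −0.21 to −0.01 for dantrolene and from −0.39 to −0.14 for LPC + dantrolene, with the value nearest to 0 again without vehicle isolation 3. The size of the medians depended on the scaling, and for dantrolene the sign did too. When libraries were scaled by total counts alone, the members' medians were −0.02, 0.06 and −0.06 and those of all genes −0.0023, 0.13 and 0.12. By complex, the medians for LPC, dantrolene and LPC + dantrolene against vehicle were −0.17, −0.16 and −0.26 for complex I and −0.32, −0.11 and −0.18 for complex II. They were −0.25, −0.17 and −0.18 for complex III, −0.13, −0.24 and −0.31 for complex IV and −0.21, −0.28 and −0.31 for complex V. All members of complexes II and III, and all but 1 at most of complexes IV and V, had estimates below 0 in each of these 3 comparisons. Between the treated groups the medians were −0.07 for LPC + dantrolene against LPC, −0.10 for LPC + dantrolene against dantrolene and 0.04 for dantrolene against LPC.

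Within isolations the members' median changed sign for LPC and for dantrolene but not for LPC + dantrolene. For LPC minus vehicle the median difference in log2 CPM was −0.24 in isolation 1, 0.11 in isolation 2 and −0.51 in isolation 3. For dantrolene minus vehicle it was 0.10, −0.39 and −0.34, and for LPC + dantrolene minus vehicle −0.17, −0.06 and −0.63. Over all genes tested the medians were −0.0081, −0.04 and −0.13 for LPC and 0.0057, −0.15 and −0.07 for dantrolene. For LPC + dantrolene they were −0.03, −0.16 and −0.06. There were 17 members lower with LPC in all 3 isolations and 2 higher. With dantrolene these counts were 10 and 1, and with LPC + dantrolene 10 and 0. The counts are given without the share over all genes, so they do not show a trait of the members. The authors had already adjusted for a batch effect with ComBat, so these differences are of adjusted counts. Whether the batch was the isolation is not stated.

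**Figure D3:**
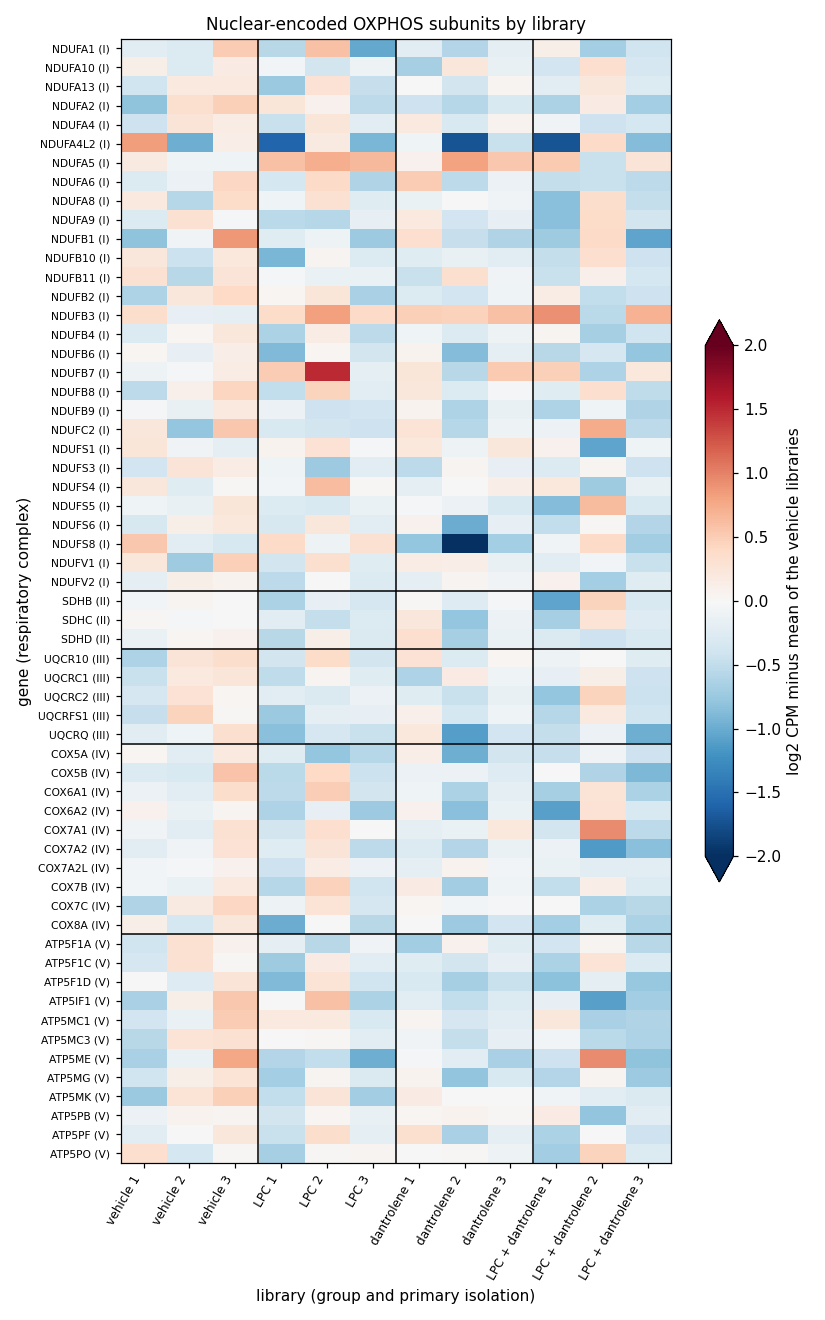
Log2 CPM of 59 members in each library (columns, by group and isolation) minus the mean of the 3 vehicle libraries, with complexes separated by lines and the color scale limited to −2 to 2. LPC + dantrolene isolation 2 departs in both directions, while NDUFA5 and NDUFB3 are above the vehicle mean in each of the other 8 treated libraries.

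Separation of single members between groups was less frequent than over all genes. All 3 LPC libraries lay above or below all 3 vehicle libraries for 7 members (11.7%), against 27.2% of all genes. The same was so for 3 members (5%) with dantrolene, against 27.1%, and for 4 members (6.67%) with LPC + dantrolene, against 10.4%. The difference between these shares was not tested. NDUFA5 and NDUFB3 were the members above vehicle with LPC, and COX5A, COX6A2, SDHB, SDHC and UQCRQ were those below. NDUFB3 was above and ATP5F1D and NDUFS8 below with dantrolene. COX7A2L, NDUFA6, NDUFB6 and SDHD were below with LPC + dantrolene. Those among them outside the rule for naming genes are given because their groups separated, that is after their values were seen.

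In complex I the matrix arm takes electrons from NADH and hands them to ubiquinone. Its N module (electron input) had 6 members, with median log2 fold changes of −0.12 for LPC, −0.05 for dantrolene and −0.30 for LPC + dantrolene against vehicle. The core N module subunit NDUFS1, which carries iron-sulfur clusters, was at 70.4, 56.8 and 52.5 CPM in vehicle, 62.6, 72.7 and 58.7 in LPC, 68.7, 55.4 and 69.6 in dantrolene and 62.7, 28.5 and 55.7 in LPC + dantrolene. Its lowest value was that of the library that stood apart, without which the log2 fold change with LPC + dantrolene went from −0.29 to 0.04. The flavin-binding NDUFV1 had a log2 fold change with LPC of −0.15, with an interval of −0.82 to 0.52, and its partner NDUFV2 one of −0.26, with an interval of −0.90 to 0.38.

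The 6 members of the Q module (ubiquinone reduction) had medians of −0.21, −0.17 and −0.18 in the same order. NDUFS8, an iron-sulfur core subunit, had the widest range of group means on the log2 scale (1.86) but few counts. It stood at 1.67, 0.934 and 0.872 CPM in vehicle and at 0.602, 0 and 0.655 CPM in dantrolene, where the count of 0 in 1 library allows up to 3 counts. The estimated difference on the log2 scale, −1.50 ± 0.88 (SE), was not past the threshold (edgeR adjusted P = 0.431), and the fitted size depends on the prior count.

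NDUFA5, an accessory subunit of the Q module, was named here after its values were seen. Its vehicle libraries held 16.3, 13.5 and 13.5 CPM and its LPC libraries 21.7, 24 and 22.6 CPM, which do not overlap. The dantrolene libraries held 15.3, 25.3 and 21 CPM and the LPC + dantrolene libraries 20.6, 10.6 and 17.1 CPM. The log2 fold change with LPC was 0.66 ± 0.34 (SE, edgeR adjusted P = 0.331). Its interaction estimate of −1.01 had an interval of −1.95 to −0.07 and also did not pass (edgeR adjusted P = 0.288). The value of 10.6 CPM, the lowest of the 12 libraries, came from LPC + dantrolene isolation 2, the library that stood apart.

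The membrane arm of complex I holds the proton channels, and its nuclear members are accessory subunits. The 6 members of the proximal arm had medians of −0.23, −0.16 and −0.11 against vehicle and the 10 of the distal arm −0.23, −0.19 and −0.28. NDUFB3 of the distal arm, also named after its values were seen, was at 17.6, 12.3 and 12.2 CPM in vehicle, 17.7, 24.4 and 18 in LPC, 19.2, 19 and 20.7 in dantrolene and 26.1, 9.44 and 22.3 in LPC + dantrolene. The 8 other treated libraries were above every vehicle library and LPC + dantrolene isolation 2 was below them all. The log2 fold changes were 0.51, 0.48 and 0.46 for LPC, dantrolene and LPC + dantrolene, none past the test.

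NDUFA4 is counted with complex I by its symbol, although its protein is now placed in complex IV, and NDUFA4L2 is its hypoxia-inducible paralog. NDUFA4L2 varied widely within groups. It was at 28.3, 8 and 17.3 CPM in vehicle, 5.23, 17.9 and 8.28 in LPC, 14.9, 4.69 and 11.6 in dantrolene and 4.68, 20.7 and 8.67 in LPC + dantrolene. All groups overlapped. The log2 fold changes were −0.78, −0.79 and −0.66, with an edgeR adjusted P of 0.356, 0.335 and 0.55. NDUFA4 was at 38.7 to 61.7 CPM in vehicle and 37.9 to 60.8 CPM in LPC, and the ratio of NDUFA4L2 to NDUFA4 counts spanned 0.0953 to 0.73 over the 12 libraries.

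Complex II oxidizes succinate and links the chain to the tricarboxylic acid cycle. SDHB, its iron-sulfur subunit, was at 53.9, 58.2 and 56.8 CPM in vehicle and 36.2, 50.4 and 44.6 CPM in LPC. SDHC, a membrane anchor, was at 78.3, 76 and 76.5 CPM in vehicle and 65.9, 55.5 and 64 CPM in LPC. Both lay below vehicle in all 3 LPC libraries, with log2 fold changes of −0.36 and −0.32, neither past the threshold. The other anchor, SDHD, was at 56.9 to 66.2 CPM in vehicle and overlapped with LPC at 42.5 to 67.4 CPM. In LPC + dantrolene SDHB spread from 27.1 to 77.1 CPM, the lowest and the highest of all 12 libraries, and its log2 fold change of −0.18 became −0.58 without isolation 2 (edgeR adjusted P = 0.191). The catalytic subunit SDHA has no symbol in the count table and was no member. Under its name in the reference list of gene names it was at 158, 149 and 181 CPM in vehicle and 117, 153 and 141 CPM in LPC, with a log2 fold change of −0.25 ± 0.32 (SE, edgeR adjusted P = 0.728).

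Complex III was represented by its core proteins UQCRC1 and UQCRC2, the Rieske iron-sulfur protein UQCRFS1 and the small subunits UQCRQ and UQCR10. UQCRC1 had the highest mean CPM of the complex, at 104, 163 and 167 in vehicle, 99.4, 147 and 119 in LPC, 93, 159 and 133 in dantrolene and 126, 154 and 106 in LPC + dantrolene. The 4 groups overlapped. UQCRQ had the widest range of group means in the complex, 0.54 on the log2 scale. It was at 40.7, 45.2 and 59.7 CPM in vehicle and 26.6, 37.9 and 35.2 CPM in LPC, which do not overlap, with a log2 fold change of −0.55 ± 0.34 (SE, edgeR adjusted P = 0.485). UQCRC2 and UQCRFS1 had log2 fold changes with LPC of −0.22 and −0.39.

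In complex IV the nuclear subunits surround a catalytic core made from mitochondrial DNA. COX7A2L, which joins complexes III and IV into supercomplexes, had the highest mean CPM and varied little, at 140, 145 and 155 CPM in vehicle, 110, 163 and 136 in LPC, 128, 154 and 141 in dantrolene and 133, 127 and 127 in LPC + dantrolene. The last group lay just below vehicle, with a log2 fold change of −0.19, or −0.11 without its isolation 2. COX7A2 had the widest range of group means, 0.70 on the log2 scale. It was at 39.6, 44 and 56.4 CPM in vehicle and 42.6, 21 and 25.7 CPM in LPC + dantrolene, with a log2 fold change of −0.65 ± 0.33 (SE, edgeR adjusted P = 0.359). It was −0.39 without LPC + dantrolene isolation 2, its lowest library. COX5A, at 77.4, 64.5 and 85.7 CPM in vehicle, was lower in all 3 LPC libraries, at 63.7, 43.7 and 50.6 CPM, with a log2 fold change of −0.53 ± 0.32 (SE, edgeR adjusted P = 0.485). COX5B overlapped, at 76.4 to 139 CPM in vehicle and 64.4 to 124 CPM in LPC.

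Several complex IV subunits have a common and a tissue-restricted form. COX6A2, the heart and skeletal muscle form, was at 35.8, 30.9 and 35.2 CPM in vehicle and 22.1, 30.2 and 20.5 CPM in LPC. In all libraries TNNT2 was at 0, while a list of smooth and skeletal muscle genes summed to 573 to 2536 CPM. The ratio of COX6A2 to COX6A1 counts was 0.221 to 0.442 over all libraries and overlapped between groups. COX7A1, the muscle form of COX7A2, was at 1.35 to 2.55 CPM in 11 libraries and at 3.98 CPM in LPC + dantrolene isolation 2, where its ratio to COX7A2 was 0.189 against 0.0358 to 0.0622 elsewhere. COX7B and COX8A had log2 fold changes within −0.53 and 0 against vehicle in all 3 treated groups. How reads shared between related copies were assigned is not given in the sources used here, so the split within each of these pairs is uncertain.

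The COX4 pair falls outside the naming pattern and was examined as context. COX4I2, the form induced by low oxygen, was at 25.8, 17.2 and 38.8 CPM in vehicle, 14.2, 25.1 and 19.8 in LPC, 21.8, 9.68 and 12.5 in dantrolene and 6.52, 17.5 and 6.72 in LPC + dantrolene. It fell with LPC + dantrolene against vehicle by 1.42 ± 0.37 on the log2 scale (SE, edgeR adjusted P = 0.00581). Without LPC + dantrolene isolation 2 it fell by 1.98 (edgeR adjusted P = 1.08e-05). The call was lost without vehicle isolation 3, without LPC + dantrolene isolation 1 or 3, and when only those 2 groups were fitted (highest edgeR adjusted P = 0.143). COX4I1, the common form by its symbol, had between 0.666 and 5.81 CPM and did not pass any comparison. The ratio of COX4I2 to COX4I1 counts was 4.43 to 4.62 in LPC + dantrolene and 4.84 to 21.3 in the other groups. This ratio was not tested and rests on the few reads assigned to COX4I1. How reads shared between the copies were assigned is not given, so the level of each form and their ratio are uncertain. The other subunits outside the pattern, NDUFAB1, CYC1 and DMAC2L, did not pass either.

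**Figure D4:**
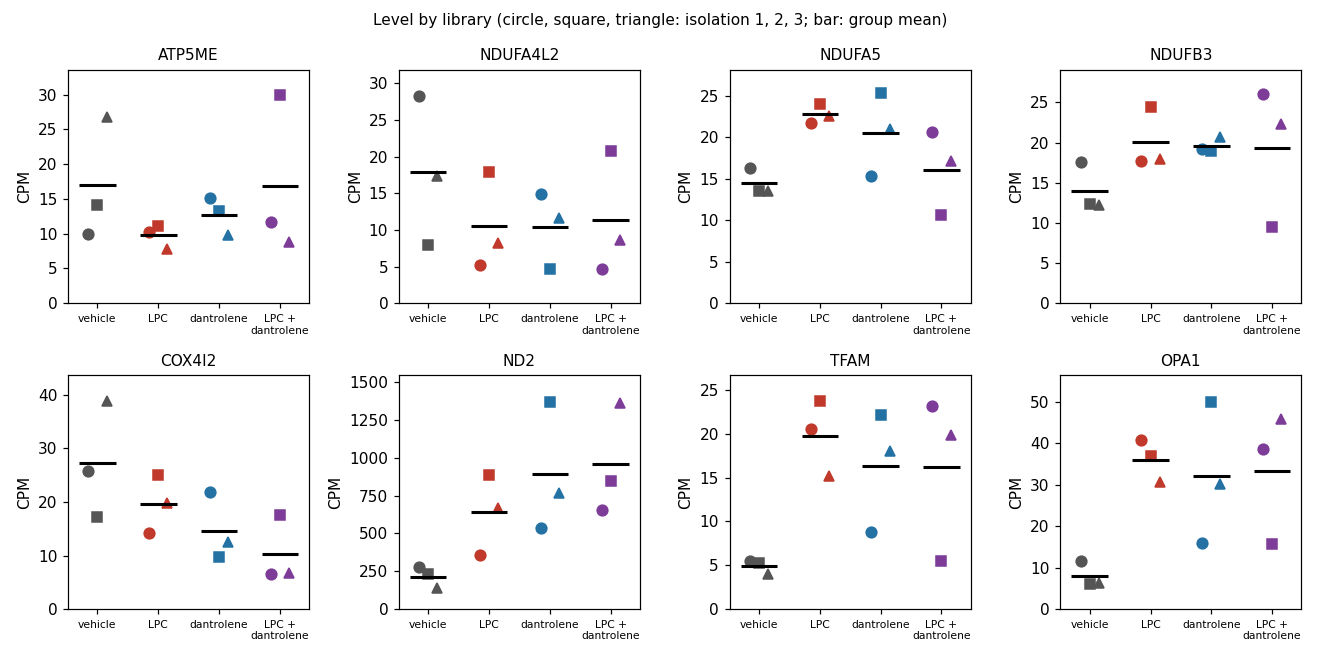
CPM of 4 members (ATP5ME, NDUFA4L2, NDUFA5 and NDUFB3) and of COX4I2, ND2, TFAM and OPA1 in each library, by group (horizontal axis) and isolation (point shape), with group means as bars and vertical axes from 0. The 3 treated groups overlap vehicle for the first 2 genes, and LPC + dantrolene isolation 2 (square) sits at the vehicle level for TFAM but not for ND2.

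Complex V joins a catalytic F1 head to a rotating c-ring and a peripheral stalk. The alpha subunit ATP5F1A, the complex V member with the highest mean CPM, was at 303, 497 and 427 CPM in vehicle, 353, 272 and 383 in LPC, 246, 423 and 339 in dantrolene and 305, 419 and 274 in LPC + dantrolene. The groups overlapped, and the log2 fold change with LPC was −0.28, with an interval of −0.93 to 0.36. The gamma subunit ATP5F1C, which turns inside the head, had a log2 fold change with LPC of −0.23, with an interval of −0.87 to 0.41. The 3 peripheral stalk members (ATP5PB, ATP5PF and ATP5PO) had medians of −0.15, −0.05 and −0.23 for LPC, dantrolene and LPC + dantrolene. Of the c-ring genes, ATP5MC1 had log2 fold changes of −0.0053, −0.21 and −0.33 and ATP5MC3 −0.11, −0.28 and −0.43, and their count ratio stayed between 0.333 and 0.534. The last of these values were −0.11 and −0.29 without LPC + dantrolene isolation 2.

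ATP5ME, the e subunit that helps ATP synthase form dimers, had the smallest unadjusted P of the members with LPC. It was at 9.92, 14.2 and 26.8 CPM in vehicle, 10.3, 11.1 and 7.87 in LPC, 15.1, 13.2 and 9.88 in dantrolene and 11.7, 30 and 8.82 in LPC + dantrolene. The groups overlapped, and the vehicle and LPC + dantrolene means each rested on 1 high library. The log2 fold change with LPC was −0.80 ± 0.37 (SE, edgeR adjusted P = 0.244) and the interaction estimate 1.20 ± 0.52 (SE, edgeR adjusted P = 0.225). Without LPC + dantrolene isolation 2, the library at 30 CPM, the interaction estimate was 0.40 and the log2 fold change with LPC + dantrolene against vehicle went from −0.01 to −0.65. ATP5IF1, which stops the enzyme from running backwards, was at 19.2, 32.9 and 44 CPM in vehicle and 26.8, 14.3 and 18.6 CPM in LPC + dantrolene, with a log2 fold change of −0.68 ± 0.34 (SE, edgeR adjusted P = 0.346), or −0.43 without isolation 2 of the latter. With LPC alone its log2 fold change was −0.0095.

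Leaving out LPC + dantrolene isolation 2 brought 3 members past the test, all for LPC + dantrolene against vehicle, where 16% of all genes then passed. NDUFB3 was higher, by 0.84 on the log2 scale (edgeR adjusted P = 0.0402). NDUFA4L2 was lower by −1.37 (edgeR adjusted P = 0.0118) and NDUFB1, a distal membrane arm subunit, by −0.97 (edgeR adjusted P = 0.0492). The members' median became −0.39, against −0.08 over all genes, and 54 of 60 estimates were below 0. In that fit 2 LPC + dantrolene libraries were compared with 3 vehicle libraries, and no member passed in the other 6 comparisons.

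The mitochondrially encoded partners of these subunits behaved differently under the same test. All 13 were tested. With LPC, 5 rose against vehicle and none fell, where 8.54% of all genes were called higher. With dantrolene 9 rose, against 7.54% of all genes, and with LPC + dantrolene 9 rose, against 6.23%. The list's median log2 fold change was 0.94, 1.33 and 1.47, beside −0.18, −0.11 and −0.08 over all genes. The difference between the subunits of the 2 genomes was not itself tested. Scaled by total counts alone, the mitochondrial medians were 1.1, 1.57 and 1.65.

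ND2, a proton channel subunit of complex I, was at 277, 231 and 136 CPM in vehicle, 360, 887 and 670 in LPC, 537, 1368 and 769 in dantrolene and 658, 844 and 1365 in LPC + dantrolene. Every treated library was above every vehicle library. Its log2 fold changes were 1.57 (edgeR adjusted P = 0.000899), 2.05 (edgeR adjusted P = 3.19e-05) and 2.15 (edgeR adjusted P = 1.99e-05). ND5, the most distal channel, rose by 1.74, 1.81 and 1.66. ATP6 and ATP8, the mitochondrial subunits of ATP synthase, rose in all 3 treated groups, as did ND6. ATP6 rose by 1.20, 1.62 and 1.69 and ATP8 by 1.74, 1.23 and 1.50. The LPC calls of ATP6 and ND6, the dantrolene calls of ATP8 and ND6 and the LPC + dantrolene calls of ATP8 and ND6 were lost with the replicate block, and the DESeq2 Wald test did not call ATP8 in any of the 3 or ND5 with LPC + dantrolene. ND1, ND4, ND4L and CYTB (cytochrome b of complex III) rose with dantrolene and with LPC + dantrolene, by 1.33 to 1.57, and ND4 was not called in either by the DESeq2 Wald test. That test called 4, 8 and 6 of the 13 with LPC, dantrolene and LPC + dantrolene. The complex IV core COX1, COX2 and COX3, and ND3, did not pass in any comparison by edgeR with all groups. COX2 with dantrolene, at 0.91 (edgeR adjusted P = 0.0826), was called in 6 alternatives, among them the DESeq2 Wald test and total counts alone. COX1 had log2 fold changes of 0.17, 0.45 and 0.21. ATP8 overlaps ATP6, ND4L overlaps ND4, ND6 lies on the other strand beside ND5, and the counting is not stated to use strand, so reads of these neighbors cannot be told apart.

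**Figure D5:**
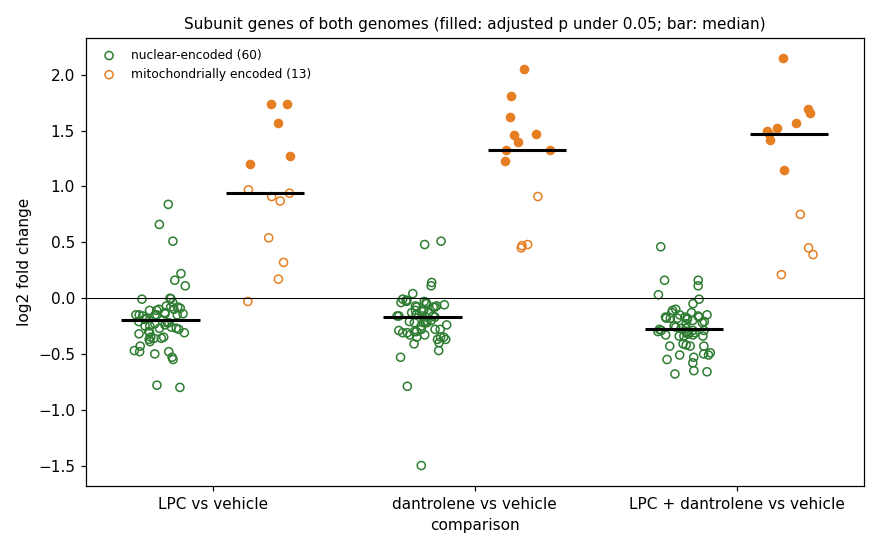
Log2 fold change against vehicle of the 60 nuclear-encoded members (green) and the 13 mitochondrially encoded subunits (orange) in 3 comparisons, with filled points past an adjusted P of 0.05 and bars at the medians. No nuclear point is filled, and 5, 9 and 9 mitochondrial points are, each above 1.

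The mitochondrial rise was uneven over isolations. The list's median difference in log2 CPM for LPC minus vehicle was −0.16 in isolation 1, 1.27 in isolation 2 and 1.47 in isolation 3. For dantrolene it was 0.22, 2.11 and 1.51 and for LPC + dantrolene 0.35, 1.24 and 2.26. The ratio of all mitochondrially encoded to all member counts was 7.33, 3.78 and 3.47 in vehicle, 5.18, 7.56 and 9.2 in LPC, 6.52, 12.8 and 7.75 in dantrolene and 7.81, 7.61 and 10.9 in LPC + dantrolene. Vehicle isolation 1 thus overlapped the treated libraries. Without the counts of COX1 the ratio was 2.52, 1.58 and 1.16 in vehicle and 2.57 to 6.82 in the treated libraries. These did not overlap, although LPC isolation 1, at 2.57, lay just above vehicle isolation 1. Neither ratio was tested. Without LPC isolation 2 the LPC count of 5 became 0, and without vehicle isolation 2 or 3 it became 3. With the isolation as a replicate block it was 3. Without LPC + dantrolene isolation 2 it was 9. Without dantrolene isolation 2 the dantrolene count of 9 became 1, and without vehicle isolation 2 it became 5. For LPC + dantrolene it became 5 without vehicle isolation 3.

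Regulators of mitochondrial biogenesis changed in part. Of 18 tested, 4 rose with LPC, with dantrolene and with LPC + dantrolene, and none fell. In these comparisons 8.54%, 7.54% and 6.23% of all genes were called higher, and the difference from this share was not tested. TFAM, which packages mitochondrial DNA and starts its transcription, was at 5.44, 5.31 and 4.01 CPM in vehicle, 20.5, 23.7 and 15.2 in LPC, 8.81, 22.2 and 18 in dantrolene and 23.2, 5.47 and 19.9 in LPC + dantrolene. Only LPC + dantrolene isolation 2 reached down to the vehicle level. TFAM rose by 2.01 ± 0.39 with LPC (edgeR adjusted P = 7.26e-05), by 1.73 ± 0.38 with dantrolene (edgeR adjusted P = 0.000767) and by 1.72 ± 0.38 with LPC + dantrolene (log2, SE, edgeR adjusted P = 0.000928). LRPPRC, which stabilizes mitochondrial mRNAs, rose by 1.59, 1.61 and 1.53. GABPA, a transcription factor that binds many OXPHOS subunit genes, rose by 1.55, 1.39 and 1.26 and MTERF1, a mitochondrial transcription factor, by 1.83, 2.02 and 1.86. The LPC + dantrolene calls of GABPA and MTERF1 were lost with the replicate block and in 7 other alternatives each (highest edgeR adjusted P = 0.339 and 0.176). The LPC call of MTERF1 was also lost with the replicate block and without LPC isolation 2 or vehicle isolation 1 or 3 (highest edgeR adjusted P = 0.215). NRF1, a nuclear regulator of the same subunit genes, had log2 fold changes of 0.01, −0.12 and 0.06. PPARGC1A was at most at 0.217 CPM and was not tested.

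Genes that build the complexes did not pass. None of 17 complex I assembly factors, 21 assembly factors of complexes II to V or 18 electron carriers and adenine nucleotide transporters was called in any comparison. The same held for 63 mitochondrial and 50 cytosolic ribosomal protein genes. Of all genes, 8.69% were called with LPC, 8.8% with dantrolene and 7.14% with LPC + dantrolene against vehicle. At an unadjusted P under 0.05 with LPC, edgeR counted 0, 2, 0, 1 and 1 genes of these 5 lists, where 15.9% of all genes passed. The DESeq2 Wald test called 1 mitochondrial ribosomal gene with dantrolene and 1 cytosolic one with LPC, and none of the other 3 lists against vehicle. Without LPC + dantrolene isolation 2, edgeR called 1 complex I assembly factor, lower with LPC + dantrolene, and 1 assembly factor of complexes II to V, higher with dantrolene and with LPC + dantrolene. In that fit 16% of all genes passed for LPC + dantrolene against vehicle. The medians of the 5 lists with LPC were −0.16, −0.17, −0.17, −0.22 and −0.21 in the order above, near the −0.18 of all genes. The median of the cytosolic ribosomal proteins with LPC + dantrolene was −0.30, beside −0.27 for the members. The 4 subunits named only by the reference list (NDUFB5, NDUFA7, UQCR11 and SDHA) had a median of −0.04 with LPC, and none passed.

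Single genes of neighboring pathways did pass. The share of all genes called higher was 8.54% with LPC, 7.54% with dantrolene and 6.23% with LPC + dantrolene. The lists were not tested against it. Of 13 tricarboxylic acid cycle enzymes, DLD, the dihydrolipoamide dehydrogenase shared by several dehydrogenase complexes, rose in all 3 treated groups, by 1.38, 1.12 and 1.15. The LPC + dantrolene call of DLD was lost with the replicate block and in 6 other alternatives. Its dantrolene call was lost in 5 alternatives (highest edgeR adjusted P = 0.179) and its LPC call in 1, without vehicle isolation 2. Of 16 genes of membrane organization and dynamics, the fusion proteins OPA1 and MFN1 rose in all 3. OPA1 was at 11.6, 6.13 and 6.28 CPM in vehicle and 40.7, 36.9 and 30.6 CPM in LPC, with log2 fold changes of 2.17, 2.00 and 2.06. Of 14 genes linked to hypoxia-inducible factor 1, HIF1A itself rose by 1.50, 1.47 and 1.56 and HIGD1A, a respiratory supercomplex factor, by 1.04 with LPC, a call lost with the replicate block and in 6 fits that left out 1 library. The HIF1A call was lost without dantrolene isolation 2 for dantrolene and without LPC + dantrolene isolation 3 for the combination. BNIP3, a mitophagy receptor, fell by 1.63 on the log2 scale with dantrolene and by 1.52 with LPC + dantrolene. PDK4, a kinase that inhibits pyruvate dehydrogenase, was at 1.48, 1.58 and 0.93 CPM in vehicle and 15.3, 15.6 and 11.3 CPM in LPC and rose by 3.40 ± 0.47 (log2, SE, edgeR adjusted P = 7.32e-07). It rose by 2.55 with LPC + dantrolene, and its log2 value with dantrolene differed from vehicle by −0.22. PDK1, a related kinase, did not pass with LPC, at 0.79 on the log2 scale (edgeR adjusted P = 0.151). The calls of TFAM, OPA1, MFN1, BNIP3 and PDK4 against vehicle held in every alternative.

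Among marker genes of other cell types, few passed. Of all genes, 8.69% were called in either direction with LPC, 8.8% with dantrolene and 7.14% with LPC + dantrolene against vehicle. Of the 7 endothelial genes tested, CDH5 fell with dantrolene by 1.20 on the log2 scale (edgeR adjusted P = 0.0111), a call lost in 4 alternatives, and the list summed to 86.5 to 88.9 CPM in vehicle, 64 to 71.2 in LPC, 48.9 to 67.1 in dantrolene and 53.5 to 62.3 in LPC + dantrolene, a sum that was not tested. The muscle list, which holds genes that fibroblasts can also express, summed to 573 to 2536 CPM. Of its 5 genes tested, DES fell with dantrolene by 1.30 and with LPC + dantrolene by 1.63, and neither was called by the DESeq2 Wald test. Of the 10 fibroblast genes LUM rose in all 3 treated groups, by 1.35, 1.59 and 1.35, with the LPC and LPC + dantrolene calls lost without vehicle isolation 2. Both leukocyte genes tested, and the 1 cardiomyocyte gene tested, did not pass. The summed leukocyte list was at 16.5 to 23.9 CPM in vehicle and 12.6 to 28.8 CPM over all libraries. The erythroid list was at most at 0.154 CPM. The part of these cells in the values above was not tested.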

How the data were processed

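Poly-A RNA of 12 cultures was sequenced. The authors deposited whole-number counts per gene and library. Their methods name ComBat adjustment for a batch effect and then DESeq2. The submitters' processing notes list HISAT2 2.0.5, R 4.1.1, DESeq2 1.32.0 and build Sscrofa11.1, whereas the methods name STAR as aligner. The counts were already adjusted for a batch, which the tests do not count, so P-values can be too small. Whether the batch was the isolation is not stated. The 4 tables of the authors' own DESeq2 comparisons hold fold changes, P-values and adjusted P-values and were not used.

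Counts were tested with edgeR 4.0.16 (R 4.3.3): TMM scaling, filterByExpr (13216 of 31908 genes), glmQLFit on all 12 libraries by group and glmQLFTest, with Benjamini-Hochberg adjustment over all genes tested. CPM are counts per 1000000 TMM-scaled counts of the genes tested, and log2 CPM used a prior count of 2. A 95% interval is the estimate ± the t quantile times the SE. DESeq2 1.42.0, other scalings and filters, a replicate block, only the groups compared, an adjusted P of 0.1 and leaving out each library were alternatives. The fit was tested on simulated data. TMM factors were 0.863 to 1.15. A count of 0 allows up to 3 counts, that is 0.114 to 0.186 CPM; intervals and this limit cover counting or model error only.

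Replicate numbers mark the primary isolation (the methods), so they pair the samples. After ComBat, deviations from group means correlated at a median of −0.152 within isolations (−0.536 to 0.207, 18 pairs) and 0.108 between them.

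Genes were named by a rule: members past the threshold, the highest and the most variable member of each complex, nuclear core subunits, paralog pairs, and up to 3 called genes per list. One gene that the rule names is not reported here and is left out of the plots that label genes, but stays in the counts and medians. Genes outside the rule are marked; all mitochondrially encoded subunits were also reported. Members and gene lists were chosen with earlier results of these data known. Groups came from the labels, and no column lacked a sample. Promoter motifs and sequences were not analysed here.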

Additional observations from a re-analysis of the deposited data

Results flagged for a closer look

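The effect of LPC differed with and without dantrolene for 7 of the genes named, by the interaction term of the edgeR fit (adjusted P under 0.05). Over all genes tested, 4.65% passed this term. None of the 7 was a nuclear-encoded subunit. In each of them LPC alone and dantrolene alone raised the gene against vehicle, and the combination was lower than the sum of both on the log2 scale. The interaction estimate was −2.11 for OPA1, −2.02 for TFAM, −1.89 for ND5, −1.87 for MFN1, −1.68 for GABPA, −1.67 for LRPPRC and −1.58 for LUM. The estimates rest on all 4 groups and share the vehicle libraries with the comparisons against vehicle. Apart from ND5, these genes were named because they had passed a comparison, so their number is not an independent result. Without LPC + dantrolene isolation 2, OPA1 had −1.84, TFAM −1.68, ND5 −1.86, MFN1 −1.55, LUM −1.38 and LRPPRC −1.35, all still past the threshold, while GABPA had −1.31 (edgeR adjusted P = 0.0551). With the replicate block, 6 of the 7 did not pass and OPA1 did. The same was so with total counts alone. The DESeq2 Wald test did not call GABPA, LRPPRC or ND5. Over all alternatives the highest edgeR adjusted P was 0.133 for OPA1, 0.145 for TFAM, 0.397 for ND5, 0.151 for MFN1, 0.278 for GABPA, 0.258 for LRPPRC and 0.29 for LUM. The test for a sample far from the others needs at least 4 samples, so groups of 3 were not tested.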

How the results depend on the processing

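Counts of members called were 0 in both directions in all 7 comparisons under the DESeq2 Wald test, every other scaling and filter, the replicate block and an adjusted P of 0.1, and in the 6 pairwise comparisons when only the compared groups were fitted. Leaving out 1 library gave 0 to 1 member called higher and 0 to 2 called lower for LPC + dantrolene against vehicle, and 0 in the other comparisons. The members' median log2 fold change for LPC + dantrolene against LPC ranged from −0.24 to 0.08 when 1 library was left out. The interaction median, 0.13, ranged from −0.11 to 0.29, and was −0.08 on total counts alone. The cause was not tested. The number of mitochondrially encoded subunits called higher with LPC, 5, was 9 when only the 2 groups were fitted and 3 with the replicate block, and ranged from 0 to 9 when 1 library was left out. The number ranged from 1 to 10 for dantrolene and from 5 to 9 for LPC + dantrolene. These 3 counts were added after seeing the data. Of 9330 values of named genes under alternatives, 165 lost and 66 gained a call, none called reversed, and 520 uncalled values changed sign. With 3 libraries a group, the 95% interval reached past 2-fold for 19, 15 and 21 of the 60 members in the comparisons of LPC, dantrolene and LPC + dantrolene with vehicle.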
